A study of Mus musculus with 15 samples.

Results

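Interferon-inducible GTPases are large GTP-binding proteins that cells make after interferon signalling. The 10 genes described here are 6 that encode guanylate-binding proteins (Gbp2, Gbp3, Gbp4, Gbp5, Gbp6 and Gbp7) and 4 that encode immunity-related GTPases (Iigp1, Igtp, Irgm1 and Irgm2). They were chosen by symbol, and each was found as a single Ensembl gene among the 55421 in the deposited table. All 10 reached 1 TPM, a transcript level scaled to gene length and library size, in at least 3 of the 15 libraries, a filter that 12800 genes passed.

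Guanylate-binding proteins assemble on the vacuoles of intracellular parasites and on bacteria and help to break them open or to alert the inflammasome. Among the immunity-related GTPases, Iigp1 (Irga6) is an effector that loads onto parasite vacuoles, whereas Igtp (Irgm3), Irgm1 and Irgm2 are regulators that keep the effectors inactive on the host's own membranes. Interferon gamma raises these genes in part through IRF1, which binds interferon-stimulated response elements. In CD4 T cells the family is best known through Irgm1, whose loss leads to death of activated cells exposed to interferon gamma.

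The study profiled mouse CD4 T cells grown for 5 days under conditions for TH17 cells, which make IL-17, or for regulatory T cells (Treg), which express Foxp3. Naive cells sorted from spleen and lymph nodes were stimulated on plate-bound antibodies to CD3 and CD28. TH17 cultures received TGF-beta at 2.5 ng/ml with IL-1 beta, IL-6 and IL-23, and Treg cultures received IL-2 at 200 U/ml with TGF-beta at 0.5 ng/ml, or at another dose not given in the sources used here. Every culture also held antibodies that block interferon gamma (1 µg/ml) and IL-4. There were 5 groups of 3 libraries. STAT3-fl/fl CD4-cre cells in TH17 conditions with the solvent DMSO are called knockout TH17 here; the Cre in these cells is driven by the Cd4 promoter. Cells labelled wild type were grown as TH17 with DMSO, TH17 with Srci1, Treg with DMSO and Treg with Srci1. Srci1 is named only by its code in the labels; it was added 24 h after plating and its concentration is not given in the sources used here.

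Stat3, the targeted gene, stood at 33.53, 38.44 and 30.74 TPM in the knockout libraries and at 99.78 to 132.94 TPM in the wild-type DMSO TH17 libraries, with means of 34.24 and 120.8 TPM. The deposited values carry no read counts, so the depth behind them is unknown. CD4 T cell markers were present in all 15 libraries. Il17a averaged 1338 TPM in DMSO TH17 and at most 40.36 TPM in the other 4 groups, and Foxp3 averaged 11.73 TPM in DMSO TH17 and 129.7 to 268.5 TPM elsewhere. Other markers of these cells did not all follow. Of the Treg markers, Ikzf2 was also higher in the knockout than in DMSO TH17. Il2ra (371.8 against 692.3 TPM) and Ctla4 (203.5 against 410.5 TPM) were lower there. Ctla4 was lower in DMSO Treg as well, at 324.2 TPM. The TH17 marker Ccr6 was higher in the knockout (66.73 against 28.07 TPM), while the other 4 were lower. Markers of B cells summed to 698.6 to 801.0 TPM in the knockout libraries and 113.0 to 117.8 TPM in DMSO TH17, nearly all of it Ighm, while Ms4a1 and Pax5 were near 0. Of the 7 B cell markers 5 were tested, and 5 were higher in the knockout. Of the 8 myeloid markers 2 were tested and both were higher; their sum was 147.5 to 174.1 TPM against 35.34 to 44.3 TPM, mostly Cd74, with Lyz2 and Csf1r near 0. B cell marker sums were 513.4 to 547.0 TPM in Srci1 TH17, 162.5 to 167.2 TPM in DMSO Treg and 273.2 to 297.1 TPM in Srci1 Treg. Myeloid marker sums were 50.29 to 61.84 TPM in Srci1 TH17, 117.9 to 120.7 TPM in DMSO Treg and 105.8 to 122.1 TPM in Srci1 Treg. They were lowest in the 2 wild-type TH17 groups, as the GTPase sum was, and overlapped between the 2 Treg groups. Markers of CD8 T and NK cells summed to 10.51 to 117.5 TPM with Ncr1 at 0 in every library, highest in Srci1 TH17. That sum was mostly Klrd1, at 88.9 TPM on average in Srci1 TH17, 42.8 in DMSO TH17 and 1.27 in the knockout. Cd8a and Prf1 went the other way. Cd8a averaged 4.74 TPM in the knockout and 0.02 TPM in DMSO TH17. Prf1 averaged 6.28 TPM in the knockout, 15.75 TPM in DMSO Treg and 0.75 TPM in DMSO TH17. Both gamma delta T cell markers together were at 28.88 to 34.55 TPM in Srci1 Treg and at most 8.72 TPM elsewhere, nearly all Tcrg-C1. Red blood cell markers were at 16.7 to 28.0 TPM in Srci1 Treg and at most 5.23 TPM elsewhere. The part of such cells in the results below was not tested. In bulk RNA, a change in the number of cells that make a transcript and a change in the amount per cell cannot be told apart.

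The 10 genes lie at 5 places in the genome (GRCm38, GENCODE M21 gene models, all protein-coding). Gbp5 (ENSMUSG00000105504.4, chr3:142493978-142522344), Gbp7 (ENSMUSG00000040253.15, chr3:142530342-142550149), Gbp3 (ENSMUSG00000028268.14, chr3:142560026-142573209) and Gbp2 (ENSMUSG00000028270.12, chr3:142620602-142638008) lie in a row on the plus strand within 144.0 kb. Gbp4 (ENSMUSG00000079363.7, chr5:105115767-105139586) and Gbp6 (ENSMUSG00000104713.4, chr5:105270702-105293698) lie on the minus strand within 177.9 kb. Igtp (ENSMUSG00000078853.8, chr11:58199556-58207591) and Irgm2 (ENSMUSG00000069874.7, chr11:58199618-58222782) share a locus on the plus strand, and Irgm1 (ENSMUSG00000046879.7, chr11:48861968-48871683) is on the minus strand of the same chromosome. Iigp1 (ENSMUSG00000054072.12) lies apart from the others on another chromosome. Some values could be split between near-identical or overlapping models: Igtp and Irgm2 overlap each other, Gbp4 overlaps Gbp8 and Gbp9, Gbp6 overlaps Gm43302, and Gbp7 overlaps the processed pseudogene Gm43802, in each case on the same strand.

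Because interferon-stimulated response elements are the sites through which IRF1 acts, the start regions of the genes were read for the core of that element, a pair of GAAA runs with 2 bases of any kind between them, on both strands. RefSeq windows (GRCm38.p6, 250 bases before to 50 bases after the annotated start) were matched for 7 of the 10 genes; Gbp4, Gbp6 and Iigp1 had none. All 7 held the core in at least 1 window, against 3.99% of the 27025 genes in the same table. The matches are shown on the strand of the gene, 5′ to 3′, with the core in capitals (it reads TTTC, 2 bases, TTTC where it lies on the other strand):
Gbp2, chr3:142620597-142620620, plus strand: cttttagTTTCACTTTCactgtct
Gbp3, chr3:142559992-142560021, plus strand: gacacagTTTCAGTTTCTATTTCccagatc
Gbp5, chr3:142496749-142496798, plus strand: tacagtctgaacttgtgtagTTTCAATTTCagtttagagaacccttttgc
Gbp7, chr3:142530263-142530312, plus strand: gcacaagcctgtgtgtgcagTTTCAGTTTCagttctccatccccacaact
Igtp, chr11:58199502-58199551, plus strand: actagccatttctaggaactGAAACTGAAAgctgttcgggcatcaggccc
Irgm2, chr11:58214893-58214942, plus strand: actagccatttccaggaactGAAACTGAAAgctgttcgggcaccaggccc
Irgm1, chr11:48871428-48871457, minus strand: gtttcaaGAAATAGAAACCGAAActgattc

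Gbp3 and Irgm1 each held 2 overlapping cores, and the other 5 genes held 1. Counted from the RefSeq start, the core lay between 64 and 15 bases before it in 6 genes and 165 to 156 bases before it in Gbp5. RefSeq and GENCODE starts differ: the stretches of Gbp5, Irgm1 and Irgm2 lie inside the GENCODE models given above, and 30 of 30 bases of the Irgm1 stretch and 19 of 24 of the Gbp2 stretch are in GENCODE exons. The longest run shared by the Igtp and Irgm2 windows is 61 bases and does not hold the core. The printed stretches of Igtp and Irgm2 are still nearly the same, core included, so they are not independent matches. A shorter core of the gamma-activated site, TTCNNNGAA, was present in the windows of 4 of the 7 genes (Gbp5, Gbp7, Igtp and Irgm2), against 9.55% of all genes in the table. It was present in 3 of 8 other GTPase genes (37.5%) and 4 of 18 interferon-stimulated genes that are not GTPases (22.2%). These matches describe letters in a window, not bound sites.

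**Figure D1:**
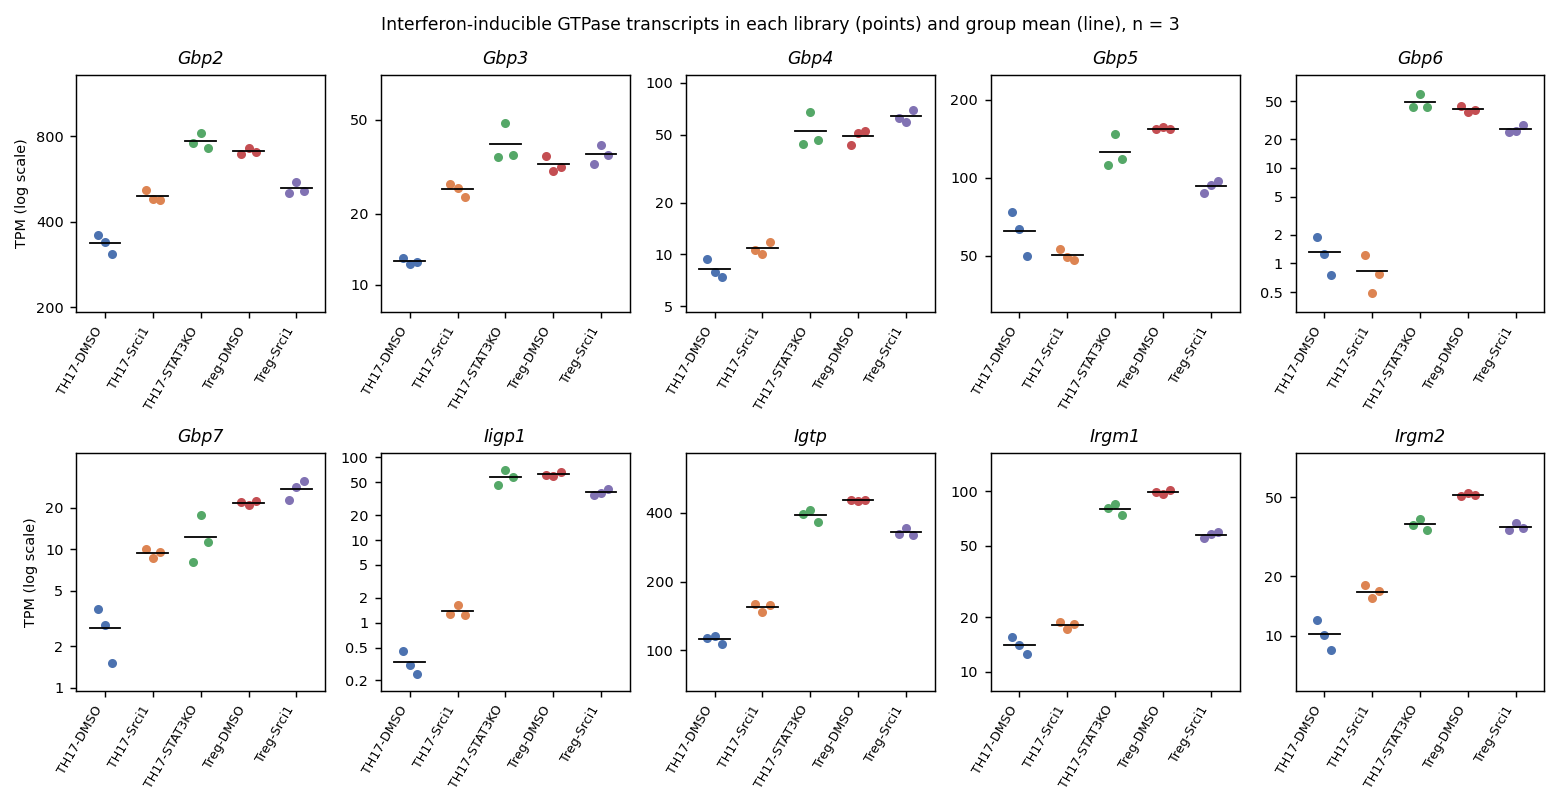
TPM (log axis) of each of the 10 genes, 1 panel per gene; points are the 3 libraries of each group and the line is their mean. Wild-type DMSO TH17 or Srci1 TH17 is the lowest group in every panel, and the means of knockout TH17 and both Treg groups stand above them.

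Summed over the 10 genes, the level was 559.8 ± 49.31 TPM (SD, n = 3, as for every group mean here) in DMSO TH17 and 1614 ± 137.9 TPM in knockout TH17. DMSO Treg had 1674 ± 12.74 TPM, Srci1 Treg 1228 ± 46.46 TPM and Srci1 TH17 779.6 ± 32.6 TPM. The 3 lowest libraries of the 15 were those of DMSO TH17 (507.1 to 604.8 TPM), and the knockout and DMSO Treg sums overlapped (1515 to 1772 and 1660 to 1685 TPM). Gbp2 made up 42.23% to 63.15% of the sum and Igtp 19.82% to 27.11%, so the other 8 genes shared the rest. Knockout replicate 2 was the highest knockout library for all 10 genes, and DMSO TH17 replicate 3 was the lowest of its group for 9 of 10.

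The comparison of knockout with wild-type DMSO TH17 asks how these genes stand without STAT3. All 10 were higher in the knockout (limma on log2(TPM + 1), Benjamini-Hochberg adjusted p under 0.05 over all 12800 genes), where 30.9% of all tested genes were called higher and 18.9% lower. Their median log2 difference was 1.81, against 0.13 over all tested genes. The 2 groups did not overlap in any of the 10 genes. Iigp1 was under 1 TPM in all 3 wild-type DMSO TH17 libraries and so passed the filter only through other groups. The count was 10 without any filter as well.

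The effector Iigp1 differed most. It was listed at 0.45, 0.31 and 0.24 TPM in the wild-type libraries and at 46.65, 71.12 and 58.48 TPM in the knockout, a log2 difference of 5.47 ± 0.14 (SE; limma adjusted p = 9.26e-13). Gbp6 followed, with 1.9, 1.25 and 0.76 TPM against 43.79, 59.25 and 43.71 TPM, a log2 difference of 4.45 ± 0.19 (limma adjusted p = 1.83e-10). Both genes were low in wild-type TH17 cells, as was Gbp7, at 1.52 to 3.72 TPM there.

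Gbp4, the neighbour of Gbp6, went from 9.45, 7.86 and 7.34 TPM to 44.08, 67.39 and 46.59 TPM, a log2 difference of 2.52 ± 0.15. The abundant Gbp2, which targets parasite vacuoles, went from 361.02, 340.13 and 307.33 TPM to 754.68, 824.24 and 729.07 TPM, a log2 difference of 1.19 ± 0.07. Gbp5, linked to the NLRP3 inflammasome, had the smallest difference, 1.01 ± 0.12 (limma adjusted p = 1.10e-05), with 49.88 to 73.89 TPM in the wild type and 112.36 to 148.06 TPM in the knockout. The 4 genes of the chromosome 3 row thus ranged from 1.01 (Gbp5) to 1.84 (Gbp7) in log2 difference, and the 2 genes of chromosome 5 from 2.52 to 4.45.

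The 3 regulators rose too, Irgm1 by the most. Igtp was at 113.61, 115.16 and 106.52 TPM in the wild type and 394.91, 411.22 and 363.6 TPM in the knockout, a log2 difference of 1.79 ± 0.06 (limma adjusted p = 9.83e-12). Irgm1 went from 12.55 to 15.66 TPM up to 74.21 to 85.39 TPM (2.43 ± 0.08) and Irgm2 from 8.46 to 12.1 TPM up to 34.42 to 38.83 TPM (1.75 ± 0.11). The spread within a group was small beside these differences for all 3.

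Treg and TH17 cells are alternative fates of the same naive cells, and the same 10 genes were compared between the 2 DMSO cultures. All 10 were higher in Treg, where 32.3% of all tested genes were called higher and 12.5% lower, with a median log2 difference of 2.34 against 0.18 over all tested genes. This comparison and the one before share the DMSO TH17 libraries, so they are not independent. Iigp1 again differed most, at 61.68, 60.48 and 66.64 TPM in Treg (5.59 ± 0.14, limma adjusted p = 2.32e-12). Gbp6 was at 44.06, 38.46 and 40.64 TPM in Treg (4.22 ± 0.19).

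Regulators again stood high in Treg. Igtp was at 456.88, 452.13 and 452.85 TPM, 4.06 times its mean in DMSO TH17. Irgm1 was at 96.9 to 102.27 TPM, 7.04 times the mean, and Irgm2 at 51.0 to 52.52 TPM, 5.06 times. The smallest difference was that of Gbp2 (1.07 ± 0.07), the gene with the highest level of the 10 in every group.

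**Figure D2:**
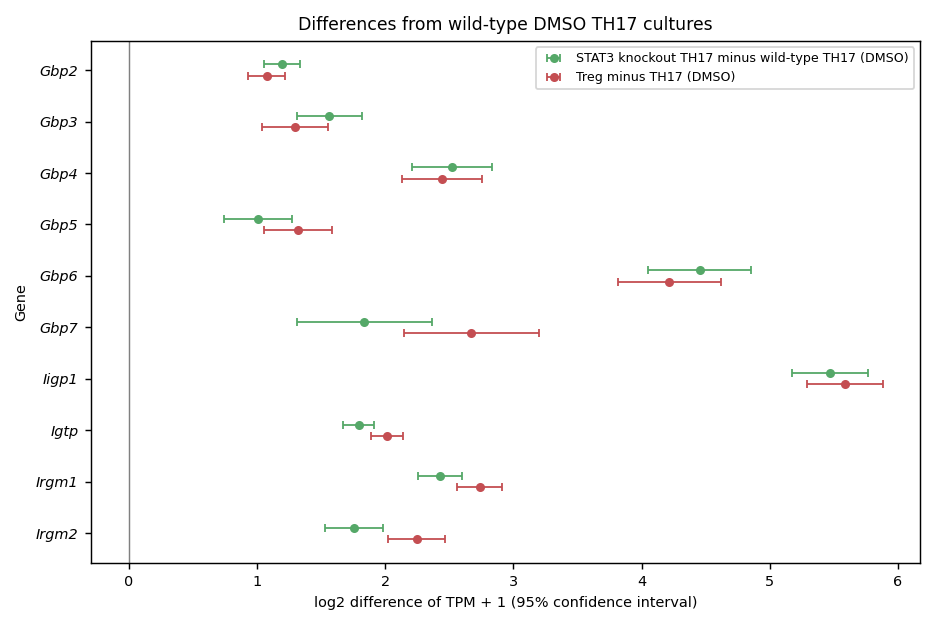
Log2 differences of the 10 genes for knockout against wild-type DMSO TH17 and for DMSO Treg against DMSO TH17, on log2(TPM + 1), with bars for the 95% interval from limma. All 20 values are above 0, from 1.01 (Gbp5, knockout) to 5.59 (Iigp1, Treg); both sets share the DMSO TH17 libraries.

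Set directly against each other, the knockout TH17 and DMSO Treg cultures differed less. None of the 10 genes was called higher in the knockout and 4 were called lower, where 17.3% of all tested genes were higher and 24.7% lower. The 4 were Gbp7, the guanylate-binding protein linked to assembly of the NADPH oxidase (log2 difference -0.84 ± 0.25, limma adjusted p = 0.0140), and the 3 regulators Irgm2 (-0.49 ± 0.11), Irgm1 (-0.31 ± 0.08) and Igtp (-0.22 ± 0.06). Igtp was at 363.6 to 411.22 TPM in the knockout and 452.13 to 456.88 TPM in Treg, without overlap, but lost its call with median-of-ratios scaling (-0.14, limma adjusted p = 0.0517) and quantile normalization (-0.09, limma adjusted p = 0.140). Gbp7 lost its call without knockout replicate 1 (-0.59, limma adjusted p = 0.0716). The other 6 missed the threshold, and their 95% intervals ranged from -0.57 to 0.64 in all. For Iigp1 the interval was -0.41 to 0.18 and for Gbp2 it was -0.02 to 0.26.

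In TH17 cultures, Srci1 raised 7 of the 10 genes over DMSO and lowered none, where 33.8% of all tested genes were higher and 7.08% lower and the median over all tested genes was 0.21. The members' median was 0.51. Gbp7 had the largest difference, with 3.72, 2.82 and 1.52 TPM under DMSO and 10.04, 8.63 and 9.62 TPM under Srci1 (1.55 ± 0.25, limma adjusted p = 2.75e-04). Gbp3 went from 12.22 to 12.99 TPM up to 23.52 to 26.82 TPM (0.96 ± 0.12), and Iigp1 from at most 0.45 TPM to 1.26, 1.64 and 1.24 TPM (0.84 ± 0.14), still low. Gbp2 went from 307.33 to 361.02 TPM up to 478.06 to 518.07 TPM (0.55 ± 0.07).

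Smaller rises were seen in Irgm2 (0.67 ± 0.11), Igtp (0.46 ± 0.06) and Irgm1 (0.35 ± 0.08, limma adjusted p = 0.00418). Gbp4, Gbp5 and Gbp6 were not called. Gbp4 was at 10.12 to 11.84 TPM under Srci1 against 7.34 to 9.45 TPM, without overlap (0.37, limma adjusted p = 0.0566). Over the alternatives its difference ran from 0.07 (quantile normalization, limma adjusted p = 0.708) to 0.46 (without DMSO TH17 replicate 1, limma adjusted p = 0.0301). Gbp5 was at 48.15 to 52.79 TPM under Srci1 against 49.88 to 73.89 TPM (-0.30, 95% interval -0.56 to -0.03, limma adjusted p = 0.0695), and Gbp6 stayed at or under 1.22 TPM. Scaling matters here: with median-of-ratios scaling the median of all genes moved to -0.01, Irgm1 lost its call (0.09, limma adjusted p = 0.205) and Gbp5 (-0.56, limma adjusted p = 1.35e-04) and Gbp6 (-0.46, limma adjusted p = 0.0406) were called lower. Irgm1 also lost its call with quantile normalization (0.04, limma adjusted p = 0.573) and with the compared groups alone (limma adjusted p = 0.0660). Without DMSO TH17 replicate 3, Gbp5 (-0.45, limma adjusted p = 0.00586) and Gbp6 (-0.50, limma adjusted p = 0.0499) were also called lower. Ribosomal protein genes took 22.14% ± 0.59 of TPM in Srci1 TH17 and 28.35% ± 1.97 in DMSO TH17, and what this does to the values was not tested.

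In Treg cultures, Srci1 lowered 7 of the 10 genes and raised none, where 17.1% of all tested genes were higher and 10.0% lower and the median over all tested genes was 0.11. The members' median was -0.50. Irgm1 went from 98.87, 96.9 and 102.27 TPM to 55.3, 58.04 and 59.41 TPM (-0.78 ± 0.08, limma adjusted p = 1.16e-05), with no overlap. Gbp5 (-0.74 ± 0.12), Iigp1 (-0.72 ± 0.14) and Gbp6 (-0.67 ± 0.19) fell by similar amounts, and Irgm2 (-0.54 ± 0.11), Igtp (-0.47 ± 0.06) and Gbp2 (-0.43 ± 0.07) by less. Iigp1 was at 35.15 to 41.5 TPM with Srci1, still far above every TH17 library outside the knockout.

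Gbp3, Gbp4 and Gbp7 were not called in Treg. Gbp4 was at 62.36, 59.05 and 70.01 TPM with Srci1 against 43.65, 51.22 and 52.27 TPM without (0.37, limma adjusted p = 0.0730), and those libraries did not overlap. Gbp7 was at 22.63 to 31.1 TPM against 20.89 to 22.5 TPM (0.30, limma adjusted p = 0.386). Gbp6 lost its call when any of 3 Treg libraries was left out, at limma adjusted p of 0.0529 to 0.0613, and with a pseudocount of 0.1, at 0.10. Ribosomal protein genes took 20.85% ± 0.49 of TPM in Srci1 Treg and 25.03% ± 0.17 in DMSO Treg.

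**Figure D3:**
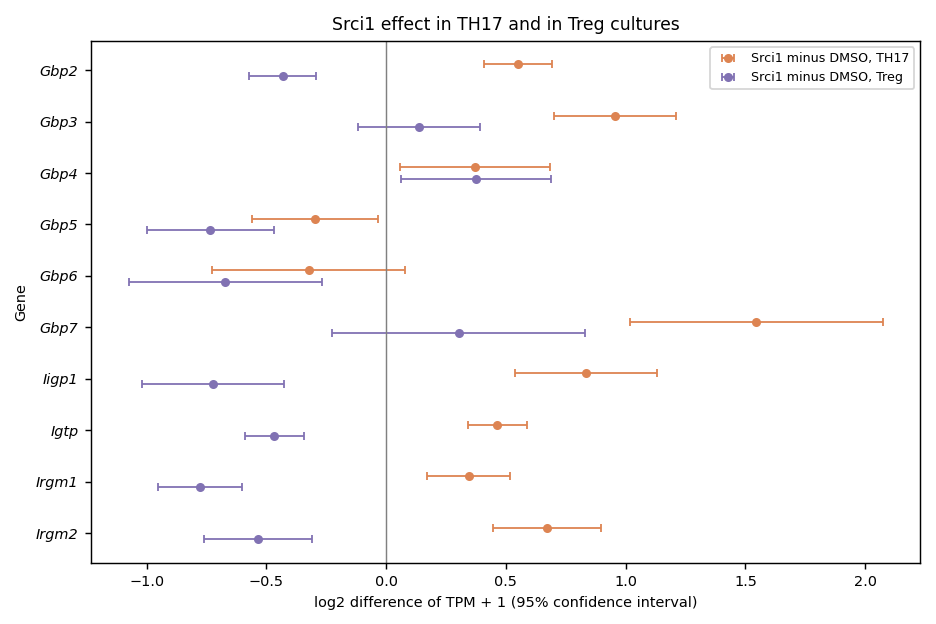
Log2 differences of the 10 genes for Srci1 against DMSO in TH17 and in Treg cultures, on log2(TPM + 1), with bars for the 95% interval from limma. In TH17 the called genes lie above 0, up to 1.55 (Gbp7), and in Treg they lie below 0, down to -0.78 (Irgm1); Gbp4 lies at 0.37 in both.

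The difference between the 2 effects of Srci1 was tested by itself, as the effect in TH17 minus the effect in Treg. It was above 0 in 7 of the 10 genes, where 11.3% of all tested genes were called above 0 and 2.95% below, with a median of 0.96 against 0.13. Iigp1 had the largest value, 1.56 ± 0.20 (limma adjusted p = 1.43e-04), followed by Gbp7 at 1.24 ± 0.35, Irgm2 at 1.21 ± 0.15 and Irgm1 at 1.12 ± 0.11. Gbp4, Gbp5 and Gbp6 were not called, at -0.003, 0.44 and 0.35. Gbp7 stood close to the threshold (limma adjusted p = 0.0294) and lost its call without the filter (0.0639) and when any of 8 libraries was left out (0.0503 to 0.0758). For Gbp4 the sign turned with the pseudocount of 0.1 and with any of 5 single libraries left out.

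Srci1 TH17 and knockout TH17 cells both have low Il17a (means of 40.36 and 10.17 TPM), and the 10 genes differed between them. In Srci1 TH17, 9 of the 10 were lower than in the knockout, where 30.6% of all tested genes were higher and 18.4% lower, and Gbp7 was not called (-0.29 ± 0.25, limma adjusted p = 0.348). Gbp6 (-4.78 ± 0.19) and Iigp1 (-4.63 ± 0.14) showed the largest differences, since both stayed near 1 TPM with Srci1. Gbp2 (-0.64 ± 0.07) and Gbp3 (-0.61 ± 0.12) showed the smallest among the called genes.

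The order of the groups was similar but not identical among genes. DMSO TH17 was lowest in 8 genes, and for Gbp5 and Gbp6 it overlapped with Srci1 TH17, which had the lower mean. DMSO Treg was highest in Gbp5, Iigp1, Igtp, Irgm1 and Irgm2, and knockout TH17 was highest in Gbp2, Gbp3 and Gbp6. Srci1 Treg was highest in Gbp4 and Gbp7. Neighbours in this order overlapped in several places: knockout and DMSO Treg for Gbp4, Gbp6 and Iigp1, and the knockout and both Treg groups for Gbp3. Srci1 Treg overlapped with Srci1 TH17 for Gbp2 and with the knockout for Gbp4 and Irgm2, and the knockout overlapped with Srci1 TH17 for Gbp7.

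Over the 15 libraries, which fall into 5 groups and so are not independent points, the members moved together (pairwise Pearson r 0.631 to 0.994 over 45 pairs, median 0.888, described without a test). The nearest pair was Igtp and Irgm1 (r = 0.994) and the farthest Gbp5 and Gbp7 (r = 0.631). The 6 named non-member genes below had the highest r with the members' mean z-score: Tapbpl (0.993), Tgtp1 (0.992), Irf1 (0.990), H2-Q6 (0.988), Trim30a (0.985) and Slc29a3 (0.984). Irf1 was at 20.28 TPM in DMSO TH17, 34.32 in Srci1 TH17, 95.59 in Srci1 Treg, 139.0 in DMSO Treg and 150.9 in the knockout.

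Of 18 other GTPase genes of these and related families, not all of them interferon-inducible, 16 were tested. Mx1, Mx2 and Gvin1 are of other families. In the knockout 11 were higher and none lower, with a median of 1.90, where 30.9% of all tested genes were higher and 18.9% lower. They included Gm12250, the effector known as Irgb10, at 49.68 to 63.39 TPM against 8.34 to 8.84 TPM (2.55, limma adjusted p = 1.33e-11), and Ifi47, at 281.6 against 81.68 TPM on average (1.78). Gbp2b had 18.92 to 24.25 TPM in the knockout, 0.16 to 0.2 TPM in DMSO TH17 and 2.33 to 2.8 TPM in DMSO Treg. It was 1 of 6 that were higher in the knockout than in Treg (2.59, limma adjusted p = 8.00e-09), while 4 were lower. Over all tested genes, 17.3% were higher and 24.7% lower there. In Treg against TH17, 13 were higher and 1, Irgq, was lower, where 32.3% of all tested genes were higher and 12.5% lower. Srci1 raised 7 and lowered none in TH17, where 33.8% of all tested genes were higher and 7.08% lower. In Treg it lowered 5 and raised 1, where 10.0% of all tested genes were lower and 17.1% higher. Mx1 went from 4.35 to 0.48 TPM in Treg (-1.81). The difference between the Srci1 effects was above 0 for 6 and below 0 for none, where 11.3% and 2.95% of all tested genes were. Gm12250 had 1.01 (limma adjusted p = 9.14e-05).

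**Figure D4:**
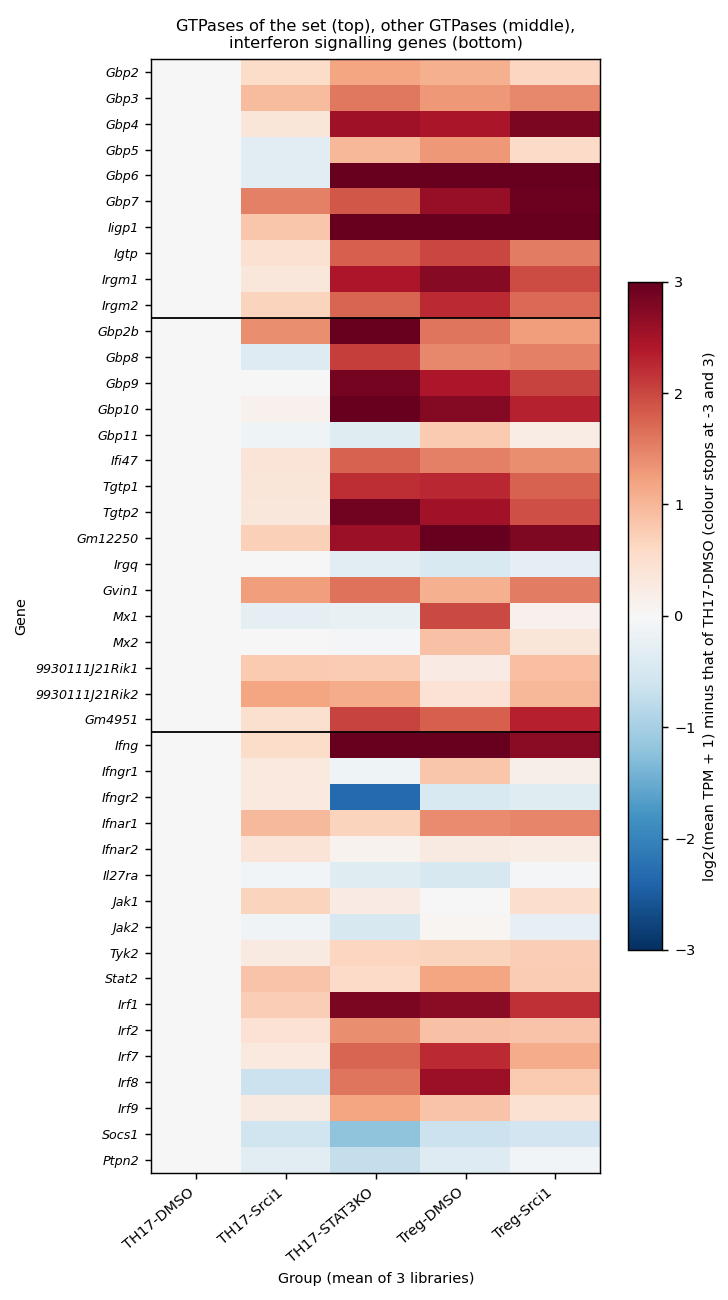
Log2 of mean TPM + 1 in each group minus that in wild-type DMSO TH17, with the colour stopping at -3 and 3. The 10 genes are at the top and the other GTPases in the middle. Ligands, receptors, kinases, factors and inhibitors of the interferon pathway, with Il27ra, are at the bottom. The 10 genes are coloured above 0 throughout the knockout and Treg columns, while the signalling genes go both ways.

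A list of 18 held ligands, receptors, kinases, factors and inhibitors of the interferon pathway, and the IL-27 receptor gene Il27ra. Of these, 17 were tested and Ifnb1 was listed at 0 everywhere. In the knockout, 9 were higher and 5 lower, where 30.9% of all tested genes were higher and 18.9% lower. The median was 0.60. The inhibitors Socs1 (-1.20) and Ptpn2 (-0.71) were among the 5 lower. Irf1 (2.84, limma adjusted p = 8.38e-12) and Irf8 (1.62) were higher, while the receptor chain Ifngr2 went from 17.88 to 19.53 TPM down to 2.7 to 3.02 TPM (-2.33, limma adjusted p = 1.56e-10). The ligand Ifng was at 12.73 to 16.89 TPM in the knockout and 0.25 to 0.6 TPM in the wild type (3.48), in cultures that all held the blocking antibody. DMSO Treg had Ifng at 23.09 to 26.56 TPM and Ifngr2 at 12.69 to 14.11 TPM.

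With Srci1 in TH17, 9 of these 17 were higher and 3 lower, where 33.8% of all tested genes were higher and 7.08% lower. The inhibitors Socs1 (-0.578) and Ptpn2 (-0.355) were among the 3 lower. Irf1 rose (0.73, limma adjusted p = 3.28e-05) and Irf8 fell (-0.65). Ifng was not called (0.46, limma adjusted p = 0.288), at 0.39 to 2.25 TPM with Srci1 against 0.25 to 0.6 TPM without. In Treg, Srci1 lowered 6 and raised 3, with a median of -0.04, where 10.0% of all tested genes were lower and 17.1% higher. Irf8 (-1.78), Ifng (-1.61, limma adjusted p = 0.00295), Irf7 (-1.12), Ifngr1 (-0.65) and Irf1 (-0.54) fell. Ifng was at 5.02, 14.27 and 5.67 TPM in Srci1 Treg, below all 3 DMSO Treg libraries. The difference between the Srci1 effects was above 0 in Ifng (2.07, limma adjusted p = 0.00997), Irf7 (1.41), Irf1 (1.26) and Irf8 (1.14).

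Among 23 interferon-stimulated genes that are not GTPases, 19 were tested. In the knockout 16 were higher and 2 lower, with a median of 1.20, where 30.9% of all tested genes were higher and 18.9% lower. Tap1, part of the peptide transporter, was at 219.5 against 59.51 TPM (1.87) and the immunoproteasome subunit Psmb9 at 195.5 against 40.02 TPM (2.27). In Treg against TH17, 17 were higher and none lower, where 32.3% of all tested genes were higher and 12.5% lower. In TH17, Srci1 raised 6 and lowered 1, shares near those over all tested genes, with a median of 0.26 against 0.21; Nlrc5, an activator of MHC class I genes, was among those higher (0.90). Srci1 lowered 12 and raised 1 in Treg, with Tap1 at -0.70, where 10.0% of all tested genes were lower and 17.1% higher. All 13 genes of the TH1 program were tested, and 9 were higher and 4 lower in the knockout, with a median of 2.32. Over all tested genes, 30.9% were higher and 18.9% lower there. The 4 lower were Il12rb2 (-3.79), Hlx (-1.70), Runx3 (-1.28) and Stat4 (-1.20). Tbx21, the master regulator of the program, was at 19.3 to 24.71 TPM in the knockout and 43.07 to 46.38 TPM in DMSO Treg. It was at 10.36 to 13.27 TPM in Srci1 Treg, 0.48 to 0.73 TPM in DMSO TH17 and 0.49 to 0.74 TPM in Srci1 TH17. Over the 15 libraries its r with the members' mean z-score was 0.954, and that of Ifng was 0.948. The same r was 0.7 for Foxp3, -0.49 for Stat3 and -0.902 for Il17a. In Treg, Tbx21 fell with Srci1 (-1.85, limma adjusted p = 1.71e-07).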

How the data were processed

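RNA from 15 cultures was measured as poly(A)-selected libraries. The authors' deposited table holds TPM for 55421 genes; per the submitters' processing notes STAR 2.7.9a and RSEM 1.3.3 were used with GRCm38. All 15 columns matched a sample by name. Depth is unknown. Whether the 3 libraries of a group are independent animals or cultures is not in the labels, and their spread, on which each p-value rests, may be technical.

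The fit was limma 3.58.1 (R 4.3.3, empirical Bayes with trend) on log2(TPM + 1), with 5 group means and 10 residual degrees of freedom, over the 12800 genes that reached 1 TPM in 3 or more libraries. Values are on that scale, which understates changes of low genes. Adjusted p is Benjamini-Hochberg over all genes, in 7 comparisons. Members, lists and the rule that named genes were chosen with earlier results of these data known. By that rule all 10 members were named, with fixed context genes (Stat3, Irf1, Ifng, Tbx21, Foxp3 and Il17a). It also named up to 4 called genes of each list with the smallest adjusted p, and the nearest genes by correlation. Ranges of B cell and myeloid markers are given as sums. Outside the rule, Socs1, Ptpn2, Il27ra, Irgq, Runx3 and Stat4 were named to show what the lists hold. The fit was tested on simulated data. Alternatives were pseudocount 0.1, no filter, a 5 TPM filter, median-of-ratios and quantile scaling, array weights, a replicate block, the compared groups alone, and each library left out. Protein sequences were not used here, and 1 listed gene is not reported here.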

Additional observations from a re-analysis of the deposited data

Results flagged for a closer look

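In 7 of the 10 genes the effect of Srci1 differed between TH17 and Treg cultures by the test of the difference itself (limma, adjusted over all tested genes). The effect in TH17 minus the effect in Treg, on the log2 scale, was 1.559 for Iigp1, 1.241 for Gbp7, 1.208 for Irgm2 and 1.122 for Irgm1. It was 0.983 for Gbp2, 0.931 for Igtp and 0.817 for Gbp3. Over all tested genes, 11.3% were called above 0 and 2.95% below, with a median of 0.13. For Gbp2, Igtp, Irgm1, Irgm2 and Iigp1 the gene rose with Srci1 in TH17 and fell in Treg; for Gbp3 and Gbp7 it rose in TH17 and was not called in Treg. The rise of Irgm1 in TH17 lost its call with median-of-ratios scaling, quantile normalization and the compared groups alone, and the Gbp7 difference lost its call without the filter and when any of 8 libraries was left out.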

How the results depend on the processing

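The counts of members called in the knockout, in Treg against TH17 and in Srci1 TH17 against the knockout (10, 10 and 9) were the same under every alternative run. Where 1 library was left out at a time, the other counts ranged as follows: Srci1 in TH17, 7 to 8 higher and 0 to 2 lower; Srci1 in Treg, 6 to 7 lower; the difference between the Srci1 effects, 6 to 8; knockout against Treg, 3 to 5 lower and 0 to 1 higher. For Srci1 in TH17 the members called lower numbered 2 with median-of-ratios scaling, 2 with quantile normalization and 1 with array weights, whose estimation stopped before it converged here and below. For Srci1 in Treg, 1 was higher with array weights and 1 with the compared groups alone. For knockout against Treg, 2 were higher with median-of-ratios scaling and 1 with quantile normalization. With median-of-ratios scaling the share of calls that were higher went from 62.1% to 50.3% (knockout), 82.7% to 50.2% (Srci1 in TH17), 63.0% to 43.7% (Srci1 in Treg), 72% to 49.2% (Treg against TH17), 79.2% to 61.6% (the difference) and 62.4% to 50.1% (Srci1 TH17 against knockout).

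Gbp4 changed sign in the difference between Srci1 effects with pseudocount 0.1 (0.0261), array weights (0.0317) and 5 single libraries left out (-0.0722 to 0.0905 over all such fits), and against Treg in the knockout with array weights (-0.00209) or without knockout replicate 2 (-0.107 to 0.193 over single libraries left out). Iigp1 changed sign there without knockout replicate 1 (0.0361; -0.263 at the lowest). The labels state no pairing by replicate number. Deviations from the group means had r of -0.171 to 0.128 between same-numbered libraries and -0.301 to 0.254 between others. Only 3 of 15 libraries correlated best with their own number. With 3 libraries per group this cannot show whether equal numbers share an animal or culture. With a replicate block the members called stayed 10, 7, 7, 10, 7, 9 and 4 in the 7 comparisons. Depth is unknown, so low values such as those of Iigp1 and Gbp6 in TH17 are given without a counting error.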

Other observations

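Inflammasome genes that act with guanylate-binding proteins were tested in 5 of 6 cases. In the knockout 4 were higher and none lower, where 30.9% of all tested genes were higher and 18.9% lower. Casp1 was at 19.3 against 1.69 TPM (2.94) and the adaptor Pycard at 122.7 against 55.76 TPM (1.12). In Treg against TH17 3 were higher, as were 32.3% of all tested genes: Casp1, Gsdmd and Aim2, the last at 21.7 against 4.7 TPM (2.03). Srci1 moved none of the 5 in either culture by limma's adjusted p. In Srci1 TH17, Casp1 was at 1.78 TPM, 2.90 lower on the log2 scale than in the knockout.

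LC3 conjugation genes direct these GTPases to membranes. In the knockout 6 of 10 were higher and 1 lower, where 30.9% of all tested genes were higher and 18.9% lower. Gabarapl1 was the one lower, at 42.41 against 128.5 TPM (-1.57), and Gabarap was higher (0.42), a call lost with median-of-ratios scaling (0.28, limma adjusted p = 0.0637). In Treg against TH17, none was higher and 2 were lower, among them Gabarapl1 (-0.98). Over all tested genes, 32.3% were higher and 12.5% lower there.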
